A study of Mus musculus with 16 samples.

Results

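The proteasome subunit genes are the genes whose symbol starts with Psma, Psmb, Psmc, Psmd or Psme, and 45 of the 27998 genes in the count tables carried such a symbol. Psmc3ip, which codes for a meiotic recombination protein and not for a proteasome subunit, was kept apart, which left 44 members. They comprise 5 immunoproteasome genes (Psmb8, Psmb9, Psmb10, Psme1 and Psme2) and 39 others, here called constitutive, among them 8 Psma, 8 Psmb, 6 Psmc, 14 Psmd and 3 Psme genes. The rule uses the symbol and no measured value.

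The proteasome is the protease of the cytosol and nucleus that degrades proteins tagged with ubiquitin. Its 20S core is a stack of rings, the outer ones built of alpha subunits (Psma) and the inner ones of beta subunits (Psmb), and its cutting sites lie in Psmb5, Psmb6 and Psmb7. The 19S cap holds a ring of ATPases that unfold the substrate (Psmc) and non-ATPase subunits that bind and trim ubiquitin (Psmd), although Psmd5, Psmd9 and Psmd10 are chaperones of its assembly. Interferon and other inflammatory signals can replace the cutting subunits by Psmb8, Psmb9 and Psmb10, which together form the immunoproteasome and favour peptides for MHC class I, and Psme1 and Psme2 form the activator PA28 that caps it. Blood-forming cells carry much immunoproteasome at rest, whereas red-cell precursors are remodelled for haemoglobin synthesis.

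Lineage-depleted bone marrow of C57BL/6 mice, given in the labels as 6 to 12 weeks old, was profiled by droplet single-cell RNA-seq that counts unique molecular identifiers (UMIs) at the 3′ end of transcripts. The 4 groups of 4 mice were WT (Tet2 fl/fl without Cre) with vehicle, WT with IL1β, Tet2-KO (Vav-Cre with Tet2 fl/fl, labelled Vav-Cre-Tet2-/-) with vehicle, and Tet2-KO with IL1β, where IL1β was 500 ng per mouse and day, given intraperitoneally for 5 weeks. Vav-Cre is active across the blood system from the stem cell on, and since only the Tet2-KO mice carried it, an effect of Cre and an effect of Tet2 loss cannot be told apart. The 3′ counts of Tet2 lie outside the deleted part and say nothing of the genotype, so the labels stand unchecked.

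The cells of 2 mice of one group shared each of the 8 libraries and were told apart by hashtag antibodies. Of 94917 cells that passed the quality limits, 57896 (61.0%) were assigned to a mouse, with 698 to 6432 cells and 4388604 to 44152768 UMIs a mouse. Between 2.70% and 3.23% of a library's cell barcodes also occurred in another library. Cell types were taken from fixed combinations of marker genes, called gates. In each of the 16 gates used, 3 to 6 of its own markers were among its 10 leading genes. Selecting cells by these markers favours this, so it is no independent check of the gates. The erythroblast gate was left out for its 25 cells. The tests covered 5 gates: HSC-like, immature myeloid progenitor-like (Mpo and Cd34 without Ms4a3), granulocyte progenitor-like (Elane and Ms4a3), monocyte-like and CFU-E-like (Klf1 and Car1). A mouse contributed 10 to 194 cells to the HSC-like gate, 11 to 247 to the immature myeloid progenitor-like gate, 204 to 2151 to the granulocyte progenitor-like gate, 10 to 188 to the monocyte-like gate and 18 to 573 to the CFU-E-like gate. UMIs were summed per mouse and gate and tested with edgeR's quasi-likelihood test over all genes, with Benjamini-Hochberg adjusted p under 0.05 as the limit for a gene to be called. Mice of one library enter as separate replicates although they share a droplet run, and the values with libraries as replicates are given after the results per gate.

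The promoters of Psmb8, Psmb9 and Psmb10, which replace the cutting subunits, and of Psmb5, the cutting subunit that Psmb8 replaces, are shown because these genes carry the contrast between the inducible and the constitutive core. Each is the 250 bases before the RefSeq start in GRCm38.p6, on the strand of the gene, with letters that match a searched motif in capitals. In Psmb8 (chr17:34197945-34198194, plus strand) the capitals mark a STAT-type motif, TTCNNNGAA. In Psmb5 (chr14:54617996-54618245, minus strand) they mark an antioxidant-response type motif, TGACNNNGC. In Psmb9 (chr17:34187331-34187580, minus strand) they mark a CCAAT box read on the other strand. In Psmb10 (chr8:105938393-105938642, minus strand) no searched motif was found.
Psmb8: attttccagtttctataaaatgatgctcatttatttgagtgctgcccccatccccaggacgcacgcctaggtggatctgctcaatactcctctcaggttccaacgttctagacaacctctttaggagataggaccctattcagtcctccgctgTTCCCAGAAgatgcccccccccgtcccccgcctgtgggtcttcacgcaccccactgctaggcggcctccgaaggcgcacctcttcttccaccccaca
Psmb5: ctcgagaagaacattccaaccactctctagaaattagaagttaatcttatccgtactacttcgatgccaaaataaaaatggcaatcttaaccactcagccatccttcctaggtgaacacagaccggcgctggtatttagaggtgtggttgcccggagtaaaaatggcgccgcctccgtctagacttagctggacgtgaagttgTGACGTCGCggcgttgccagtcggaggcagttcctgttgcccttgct
Psmb9: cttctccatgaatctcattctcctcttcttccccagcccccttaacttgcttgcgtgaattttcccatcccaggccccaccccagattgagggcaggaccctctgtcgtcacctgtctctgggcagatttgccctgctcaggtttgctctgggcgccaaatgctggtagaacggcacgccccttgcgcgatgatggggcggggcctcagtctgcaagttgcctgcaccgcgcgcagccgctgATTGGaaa
Psmb10: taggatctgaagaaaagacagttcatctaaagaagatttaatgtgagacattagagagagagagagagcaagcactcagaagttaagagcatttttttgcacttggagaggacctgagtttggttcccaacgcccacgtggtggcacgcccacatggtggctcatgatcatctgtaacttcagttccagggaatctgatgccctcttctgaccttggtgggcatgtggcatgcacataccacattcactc

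Both strands of 40 promoters of 37 members with a RefSeq entry were searched, beside 32851 promoters of the same length over all genes. TTCNNNGAA stood in 7.02% of all promoters and, among the members, in that of Psmb8 alone, 97 bases before its RefSeq start. TGACNNNGC stood in 10.2% of all promoters and in those of Psmb5 (47 bases before its start), Psmb6, Psmc6, Psmd12 and Psmd9. The interferon-response type motif, GAAA followed after any 2 bases by GAAA, stood in 2.98% of all promoters and in those of Psmb3, Psmd4 and Psmd9. It stood in none of the windows searched for the immunoproteasome genes. CCAAT stood in 33.8% of all promoters and in those of 14 members. A match describes letters in the window, not a bound site, and each window depends on the annotated start. Psma6, Psmc2 and Psme2 had windows at different starts, and in Psma6 and Psmc2 CCAAT did not stand in all of them. By the GENCODE annotation, the windows of Psmb8, Psmb9 and Psme1 lie inside the gene, and those of Psmb10 and Psme2 partly so. The bases before the GENCODE starts of Psmb8, Psmb9 and Psme1 were thus not searched, and a missing match holds for these windows only.

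Nearly all members were read in every gate. The tested counts hold 41 members in the HSC-like and immature myeloid progenitor-like gates, 42 in the monocyte-like gate and 43 in the granulocyte progenitor-like and CFU-E-like gates. Psmb11, the beta subunit of the thymus, had 13 UMIs in all assigned cells and entered no test. Psma8, the alpha subunit of the testis, had 1121 UMIs and entered 2 gates, and Psme2b, a near copy of Psme2 whose reads may be split with it, had 1717 UMIs and entered 3. Since a UMI counts a molecule at its 3′ end, levels can be set side by side between genes without a length correction.

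Averaged over the 16 gates, Psma7 was the highest alpha gene at 586 CPM, the UMI count scaled to the same total in each mouse and gate, and Psma8 the lowest at 2.73. Among the beta genes read in every gate, Psmb4 led with 337 CPM and Psmb10 stood lowest at 97.1 CPM. The ATPases were lower, from 57.4 CPM for Psmc2 to 161 CPM for Psmc3, and the Psmd genes ran from 36.2 CPM for the chaperone Psmd10 to 130 CPM for Psmd8. Psme1, the alpha chain of PA28, was at 332 CPM and Psme2b at 7.23 CPM. Most core genes were thus more abundant in molecules than most cap genes, although Psma8, Psmb10, Psmb7 (126 CPM), Psmb2 (153 CPM) and Psmb9 (159 CPM) lay below Psmc3.

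The 44 genes together took 3976 ± 668 CPM in the immature neutrophil-like gate (SD, n = 15 mice), the lowest of the 16 gates, and 8102 ± 513 CPM in the CFU-E-like gate (SD, n = 16), the highest. The HSC-like gate stood at 5760 ± 704 CPM, the immature myeloid progenitor-like gate at 7189 ± 836 CPM, the monocyte-like gate at 7302 ± 703 CPM and the granulocyte progenitor-like gate at 7313 ± 881 CPM (SD, n = 16 each). The latter 3 differed by less than their SDs. Each SD runs over mice of all 4 groups and so includes differences between treatments, and gaps between gates were not tested. CFU-E-like cells had the most proteasome message in total but little of the immunoproteasome, 555 ± 75.3 CPM over its 5 genes against 1129 ± 194 CPM in the granulocyte progenitor-like gate (SD, n = 16 each). That sum was lower still in the immature neutrophil-like gate, at 487 ± 87.4 CPM (SD, n = 15), a gap within the spread over mice.

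The balance between both kinds of core can be written as the share of Psmb8, Psmb9 and Psmb10 in the UMIs of the 6 cutting genes. It was lowest in the CFU-E-like gate, at 20.0% ± 3.03 (SD, n = 16 mice, range 15.0 to 26.7%). The highest mean over all mice was that of the NK and T-like gate, at 59.7% ± 9.09 (SD, n = 13). Its range of 41.3 to 71.4% overlaps those of other gates, and the gate with the highest mean was not the same in each group. The highest CFU-E-like mouse met the lowest mouse of the megakaryocyte progenitor-like gate (26.4%) and lay below all mice of the other 14 gates. From there upwards came the immature neutrophil-like gate (36.4% ± 3.77, n = 15), the megakaryocyte progenitor-like gate (37.0% ± 5.06, n = 16), the basophil-like gate (40.5% ± 4.36, n = 16) and the megakaryocyte-erythroid progenitor-like gate (41.4% ± 4.32, n = 10), neighbours that do not differ beyond their SD. The granulocyte progenitor-like gate stood at 45.8% ± 3.56, the immature myeloid progenitor-like gate at 51.6% ± 3.22, the monocyte-like gate at 52.1% ± 3.48 and the HSC-like gate at 52.3% ± 6.14 (SD, n = 16 each), and the last 3 overlap. These are levels by gate, given without a test, and their SDs run over mice of all 4 groups.

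**Figure D1:**
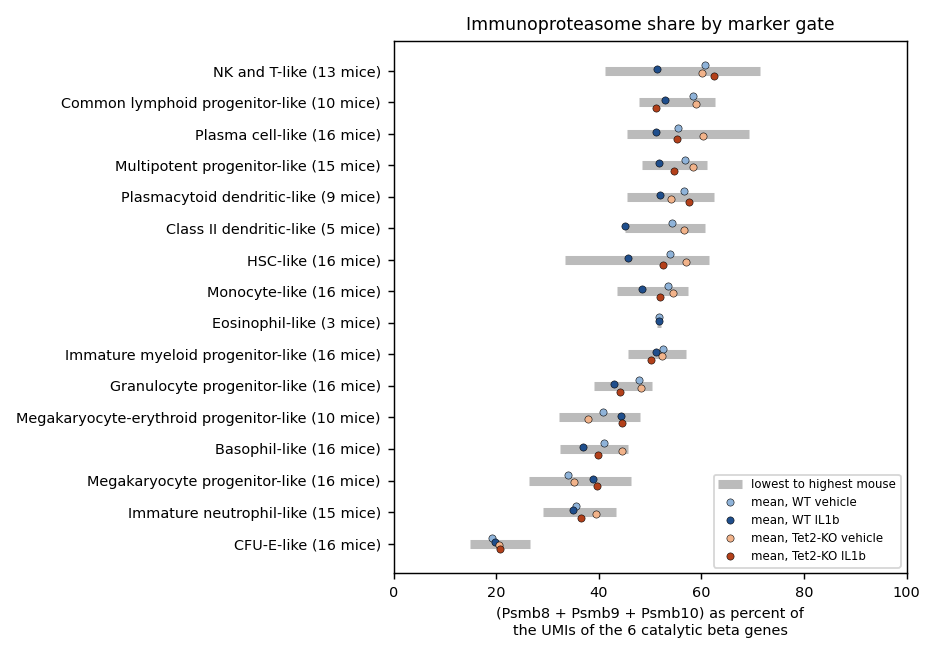
Share of Psmb8, Psmb9 and Psmb10 in the UMIs of the 6 cutting beta genes, in percent on the horizontal axis, for 16 marker gates on the vertical axis; grey bars run from the lowest to the highest mouse and points are means of the 4 groups. The CFU-E-like gate, between 15.0 and 26.7%, overlaps only the lower end of the megakaryocyte progenitor-like gate, and the NK and T-like gate has the highest mean.

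Both sides of the low share of CFU-E-like cells are given by their levels. Psmb5 stood at 304 ± 33.1 CPM there and at 308 ± 49.3 CPM in the granulocyte progenitor-like gate, and Psmb6 at 268 ± 36.1 and 234 ± 38.9 CPM (SD, n = 16 each). The mean of Psmb7 was 188 CPM (160 to 217 over 16 mice) and 140 CPM (107 to 170). Psmb6 and Psmb7 had their highest level of all gates in CFU-E-like cells. Psmb8 was at 65.4 ± 18.3 CPM against 297 ± 91.7 CPM. In percent of its granulocyte progenitor-like level, Psmb8 stood at 22.0%, Psmb9 at 34.9%, Psmb10 at 55.6%, Psme1 at 62.8% and Psme2 at 74.0%. The granule genes Elane, Mpo, Prtn3 and Ctsg, which red-cell precursors should lack, summed to 8.78% of their granulocyte progenitor-like level in the same cells. Free RNA or mixed droplets can leave such a signal, and their part in the levels of the immunoproteasome genes was not tested. When the cells of a library were summed without assignment to a mouse, leaving out hashtag doublets, the share in the CFU-E-like gate was 12.3 to 15.5% in the 4 groups.

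IL1β was compared with vehicle within each genotype, to ask whether 5 weeks of the cytokine moved the proteasome genes. In both genotypes and all 5 gates the median change of the tested members was below 0, from -0.20 to -0.48 on the log2 scale, while the median over all genes tested lay between 0.02 and 0.04. Called members were lower with IL1β, except Psme4, Psmd5 and Psmd1. Over the 10 tests a gene could have, 36 of the 43 tested members (83.7%) were called lower in at least 1 and 18 (41.9%) in at least 5, beside 24.6% and 3.84% of all genes tested. Among genes with a mean of at least 50 CPM it was 35 and 18 of 40 members, beside 42.7% and 12.0%. Of all 44 members, 6 were never called in either direction (Psmb4, Psmc1, Psmd2, Psma8, Psme2b and Psmb11).

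**Figure D2:**
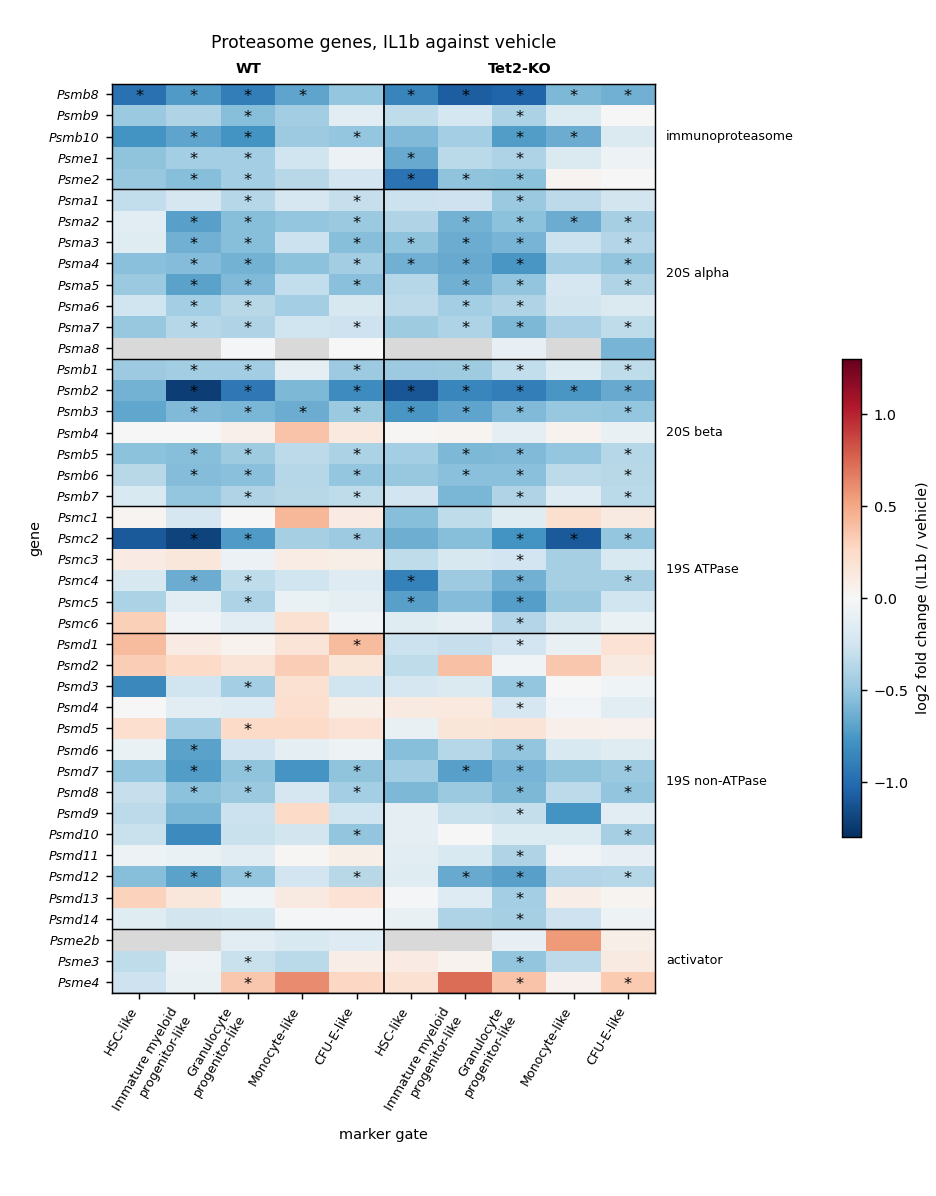
Log2 fold change of IL1β against vehicle (colour) for 43 proteasome genes (rows, grouped by part of the complex) in 5 marker gates of WT (left) and Tet2-KO mice (right); asterisks mark adjusted p under 0.05 in edgeR's test and grey fields genes that were not tested. Most core genes are blue in all gates, Psmb8 carries an asterisk in 9 of 10 columns, and Psme4 is the activator gene that was higher in 3.

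In granulocyte progenitor-like cells, the gate with the most cells, 13 of the 15 tested constitutive core genes and all 5 immunoproteasome genes were called lower with IL1β in each genotype. Of the 20 cap genes 7 were called lower in WT and 16 in Tet2-KO. Cap genes are counted here as all Psmc and Psmd genes, with the assembly chaperones Psmd5, Psmd9 and Psmd10 among them. In WT mice 26 of 43 members were called lower and 2 higher, where 16.5% of all genes were called lower and 14.2% higher. In Tet2-KO mice 35 of 43 were lower and 1 higher, against 21.1% and 20.6% of all genes. Proteasome genes are abundant and abundant genes are called more often, so the same was counted over genes with a mean of at least 50 CPM: 26 of 38 members in WT against 35.3% of such genes, and 34 of 38 in Tet2-KO against 39.3%. All 26 members called lower in WT were among the 35 of Tet2-KO. The median change of the members was -0.39 in WT and -0.48 in Tet2-KO (log2).

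Granulocyte progenitor-like cells of WT mice held Psmb8, the immunoproteasome counterpart of Psmb5, at 456, 376, 357 and 373 CPM with vehicle and at 225, 209, 158 and 247 CPM with IL1β, scaled by edgeR's TMM factors. In Tet2-KO mice it was at 338, 347, 483 and 477 CPM with vehicle and at 168, 203, 208 and 221 CPM with IL1β. Every mouse with IL1β was below every mouse with vehicle. The log2 change was -0.90 ± 0.14 in WT (SE, adjusted p = 0.000206) and -1.04 ± 0.14 in Tet2-KO (adjusted p = 2.41e-05). All 5 immunoproteasome genes were lower in both genotypes, with Psmb10, the counterpart of Psmb7, at -0.78 ± 0.10 and -0.73 ± 0.10 (adjusted p = 8.16e-05 and 2.13e-05). Psmb9, the counterpart of Psmb6, stood at -0.55 ± 0.09 and -0.41 ± 0.08 (adjusted p = 0.000192 and 0.000686). Of the PA28 chains, Psme1 stood at -0.44 ± 0.08 and -0.40 ± 0.08 and Psme2 at -0.45 ± 0.08 and -0.53 ± 0.08.

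The constitutive cutting subunits were lower as well. Psmb5 was at 379, 329, 366 and 361 CPM in WT with vehicle and at 327, 281, 200 and 236 CPM with IL1β, and the 2 groups of 4 do not overlap. In Tet2-KO mice its levels were 348, 350, 396 and 401 CPM with vehicle and 218, 219, 272 and 296 CPM with IL1β, again without overlap. Its change was -0.46 ± 0.13 in WT (SE, adjusted p = 0.0103) and -0.57 ± 0.13 in Tet2-KO (adjusted p = 0.00137). Psmb6 changed by -0.54 ± 0.13 and -0.55 ± 0.13, and Psmb7 by -0.39 ± 0.13 in both, all past the limit. The structural beta gene Psmb2 changed most among the constitutive core genes, by -0.92 ± 0.16 in WT and -0.89 ± 0.16 in Tet2-KO (adjusted p = 0.00044 and 0.000241), whereas Psmb4 stood at 0.06 ± 0.09 and -0.12 ± 0.09 and was not called. Among the alpha genes 7 of 8 were lower in both genotypes, with Psma4 at -0.62 ± 0.11 and -0.75 ± 0.11 and Psma7 at -0.39 ± 0.10 and -0.58 ± 0.10.

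**Figure D3:**
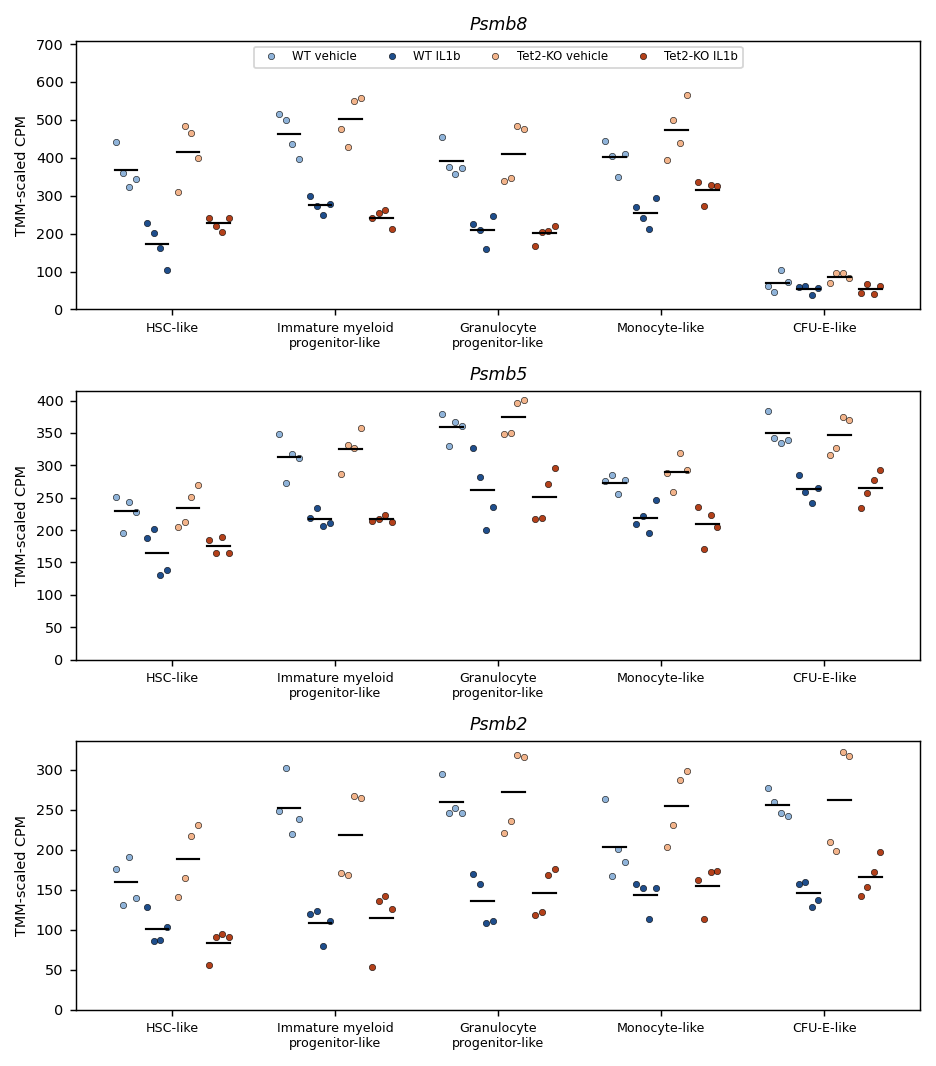
TMM-scaled CPM of Psmb8, Psmb5 and Psmb2 (vertical axes from 0) in each mouse (points, 4 a group, in order of mouse number) and the mean of the group (line), in 5 marker gates. In the granulocyte progenitor-like gate, every mouse with IL1β lies below every mouse with vehicle for all 3 genes, and mice of one library often lie side by side.

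In the 19S cap of granulocyte progenitor-like cells, 3 of the 6 ATPases were lower in WT and 5 in Tet2-KO, and of the 14 non-ATPase genes 4 and 11, beside 16.5% and 21.1% of all genes. Of the 17 cap genes at 50 CPM or more 7 (41.2%) were lower in WT, near the 35.3% of all such genes, and 15 (88.2%) in Tet2-KO, beside 39.3%. Psmc2 changed by -0.73 ± 0.15 in WT (SE, adjusted p = 0.00136), Psmd12 by -0.50 ± 0.11 and -0.70 ± 0.10 in WT and Tet2-KO, and Psmd7 by -0.52 ± 0.10 and -0.61 ± 0.10. Psmc5 and Psmc4 stood at -0.72 ± 0.10 and -0.63 ± 0.10 in Tet2-KO (adjusted p = 3.08e-05 and 7.89e-05). Psmd13, Psmd14 and Psmd4 passed only in Tet2-KO, at -0.44 ± 0.09, -0.44 ± 0.10 and -0.22 ± 0.07, and the difference between genotypes is treated further on. Psmd2, a scaffold of the cap, was at 0.17 ± 0.08 and -0.05 ± 0.07 and not called.

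Psme4, which codes for the activator PA200, moved the other way. In the granulocyte progenitor-like gate it was at 47.1, 53.0, 56.1 and 53.3 CPM in WT with vehicle and at 67.0, 62.2, 70.9 and 67.9 CPM with IL1β. In Tet2-KO mice it was at 54.3, 54.4, 46.1 and 50.1 CPM with vehicle and at 66.3, 58.3, 67.0 and 72.6 CPM with IL1β. Neither pair of groups overlaps. The changes were 0.35 ± 0.09 (SE, adjusted p = 0.00521) and 0.37 ± 0.08 (adjusted p = 0.0015), and Psme4 also rose in the CFU-E-like gate of Tet2-KO mice (0.34 ± 0.11, adjusted p = 0.0376). The chaperone Psmd5 rose in granulocyte progenitor-like cells of WT mice (0.25 ± 0.07, adjusted p = 0.0148). Psme3, the nuclear activator PA28 gamma, fell in both genotypes there, with changes of -0.29 ± 0.09 and -0.51 ± 0.08.

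In the immature myeloid progenitor-like gate, 11 of the 14 tested constitutive core genes were called lower with IL1β in each genotype. Of 41 members 21 were called lower in WT, where 7.2% of all genes were, and 15 in Tet2-KO, where 5.74% were, and all 15 were among the 21. Of the 39 members with at least 50 CPM the same 21 and 15 were lower, against 13.7% and 11.0% of genes at that level. Psmb2 was at 249, 302, 220 and 239 CPM in WT with vehicle and at 120, 124, 79.4 and 111 CPM with IL1β, a change of -1.22 ± 0.20 (SE, adjusted p = 0.000126). Its Tet2-KO levels were 171, 169, 266 and 265 CPM with vehicle and 53.6, 136, 142 and 126 CPM with IL1β, a change of -0.85 ± 0.19 (adjusted p = 0.00528). Neither comparison has overlapping groups, and mice 3 and 4 of Tet2-KO with vehicle, which shared a library, lie above mice 1 and 2. Tet2-KO mouse 1 with IL1β had 11 cells and 69597 UMIs of all genes in this gate, so its level of 53.6 CPM rests on few molecules.

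Psmb8 changed by -0.74 ± 0.14 in WT (SE, adjusted p = 0.000535) and by -1.07 ± 0.14 in Tet2-KO (adjusted p = 2.86e-05) in these immature cells. Psmb5 changed by -0.56 ± 0.13 and -0.59 ± 0.14, Psma3 by -0.62 ± 0.15 and -0.64 ± 0.15 and Psmb6 by -0.57 ± 0.17 and -0.54 ± 0.17, all called. Psmc2 stood at -1.20 ± 0.28 in WT (adjusted p = 0.0053), the only ATPase beside Psmc4 that was called there, and no ATPase was called in Tet2-KO. Psmb7 missed the limit in both genotypes, at -0.51 ± 0.19 and -0.60 ± 0.20 (adjusted p = 0.0818 and 0.054), as did Psmb9, at -0.40 ± 0.17 and -0.23 ± 0.18. These counts fell without some single libraries. Leaving out a library also leaves 2 mice in its group, so the part of that library and the smaller sample cannot be told apart. The calls over all genes in refits with other samples or settings are not given here or for the gates below. These counts therefore do not tell a loss of calls particular to the members from one over all genes. The WT count was 2 without WT mice 3 and 4 with IL1β, 4 without WT mice 1 and 2 with vehicle and 11 without WT mice 3 and 4 with vehicle, and 3 without WT mouse 3 with IL1β alone. The Tet2-KO count was 1 without Tet2-KO mice 3 and 4 with vehicle, 1 without Tet2-KO mice 1 and 2 with IL1β and 8 without WT mice 3 and 4 with vehicle, which enter the shared estimate of the spread.

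In the HSC-like gate fewer genes passed. Psmb8 was the member called in WT, where 2.2% of all genes were called lower (1 of 39 members at 50 CPM or more, against 3.46% of genes). Its levels were 442, 359, 323 and 343 CPM with vehicle and 227, 201, 162 and 104 CPM with IL1β, a change of -0.97 ± 0.21 (SE, adjusted p = 0.00563). In Tet2-KO mice it was at 310, 483, 465 and 401 CPM with vehicle and at 242, 221, 205 and 240 CPM with IL1β, a change of -0.85 ± 0.18 (adjusted p = 0.00355). The groups do not overlap in either genotype. WT mouse 2 with vehicle and WT mice 2 and 4 with IL1β had 10, 11 and 14 cells in this gate. All genes together had 30617, 33657 and 56861 UMIs in these mice, so their Psmb8 levels rest on few molecules.

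Of the 41 members tested in HSC-like cells of Tet2-KO mice, 9 were called lower, against 4.7% of all genes, and the same 9 of 39 at 50 CPM or more, against 6.86%. Beside Psmb8 these were Psmb2 (-1.11 ± 0.20), Psme2 (-0.96 ± 0.22), Psmb3 (-0.76 ± 0.17), Psme1 (-0.65 ± 0.18), Psmc4, Psmc5, Psma4 and Psma3. The medians of the members were -0.32 in WT and -0.37 in Tet2-KO, so the gap between 1 and 9 calls is no measure of a difference between genotypes. Psmb2 was at 175, 131, 191 and 139 CPM in WT with vehicle and at 128, 86.2, 87.4 and 104 CPM with IL1β (-0.62 ± 0.24, adjusted p = 0.155). The Tet2-KO count was 0 without Tet2-KO mice 3 and 4 with vehicle (9 members at an unadjusted p under 0.05), 1 without Tet2-KO mice 3 and 4 with IL1β and 3 without Tet2-KO mice 1 and 2 with IL1β, and the WT call was lost without WT mice 3 and 4 with IL1β. In Tet2-KO, DESeq2 called 5 members, stricter gates left 1 and another rule for the hashtags gave 16, and in WT the call was lost with stricter gates.

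The 7 neutrophil markers (Camp, Ngp, Ltf, Lcn2, Ly6g, S100a8 and S100a9) were all detected in the HSC-like gate and took more of its UMIs with IL1β in WT mice, 0.0832 to 0.976% against 0.0209 to 0.0549%. In Tet2-KO mice they took 0.0387 to 0.396% with IL1β and 0.0146 to 1.17% with vehicle, where 1 mouse stood apart. Immature neutrophil-like cells had the lowest sum of proteasome genes of the gates, as given above, and the part of these markers in the HSC-like result was not tested.

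In the monocyte-like gate 2 of 42 members were called lower in WT, Psmb3 (-0.64 ± 0.16, SE, adjusted p = 0.0345) and Psmb8 (-0.68 ± 0.17, adjusted p = 0.0345), where 0.907% of all genes were (2 of 38 members at 50 CPM or more, against 1.79% of genes). In Tet2-KO mice 5 of 42 were, against 1.29% of genes, and the same 5 of 38 at 50 CPM or more, against 2.4%. They were Psmc2 (-1.09 ± 0.24), Psma2 (-0.65 ± 0.15), Psmb2 (-0.76 ± 0.19), Psmb10 (-0.64 ± 0.17) and Psmb8 (-0.59 ± 0.16, adjusted p = 0.0498). Psmb8 was at 445, 404, 350 and 411 CPM in WT with vehicle and at 271, 240, 212 and 294 CPM with IL1β, without overlap. WT mouse 2 with vehicle had 10 cells and 39586 UMIs of all genes in this gate, so its level of 404 CPM rests on few molecules. PA28 was not called, with Psme1 at -0.26 ± 0.19 and -0.19 ± 0.19 and Psme2 at -0.36 ± 0.16 and 0.04 ± 0.15 in WT and Tet2-KO. Leaving out any of the 4 WT libraries took the WT count to 0 (7 to 11 members at an unadjusted p under 0.05), and leaving out Tet2-KO mice 3 and 4 with vehicle or either Tet2-KO library with IL1β took the Tet2-KO count to 0 (7 to 17 unadjusted).

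In CFU-E-like cells 12 of the 15 tested constitutive core genes were called lower with IL1β in WT and 11 in Tet2-KO, and 1 of the 5 immunoproteasome genes in each. In WT 18 of 43 members were called lower and 1 higher, against 9.42% and 5.73% of all genes, and in Tet2-KO also 18 and 1, against 7.73% and 4.24%. At 50 CPM or more 17 of 40 members were lower in each genotype, against 21.7% and 18.4% of genes, and 16 members were called lower in both genotypes. Psmb2 changed by -0.82 ± 0.14 and -0.65 ± 0.14 (SE, adjusted p = 0.000743 and 0.00574), Psmb5 by -0.42 ± 0.09 and -0.38 ± 0.09, Psmb6 by -0.51 ± 0.10 and -0.36 ± 0.10 and Psmb7 by -0.33 ± 0.09 and -0.35 ± 0.09 in WT and Tet2-KO, all called.

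Psmb8 in CFU-E-like cells was at 61.3, 45.6, 103 and 73.2 CPM in WT with vehicle and at 59.6, 60.8, 37.5 and 56.0 CPM with IL1β. These groups overlap, and the change of -0.50 ± 0.20 was not called (adjusted p = 0.102). In Tet2-KO mice the levels were 70.6, 96.1, 95.1 and 84.0 CPM with vehicle and 43.5, 67.7, 40.1 and 61.6 CPM with IL1β, a change of -0.62 ± 0.20 (adjusted p = 0.0432). Psmb9 stood at -0.15 ± 0.21 and 0.00 ± 0.20, Psme1 at -0.08 ± 0.11 and -0.06 ± 0.11 and Psme2 at -0.25 ± 0.11 and 0.01 ± 0.11, none called, and Psmb10 fell in WT, with a change of -0.51 ± 0.13 (adjusted p = 0.0122). Psmd1, a scaffold of the 19S cap, rose in WT by 0.41 ± 0.08 (adjusted p = 0.00186), was at 0.19 ± 0.08 in Tet2-KO, and fell in granulocyte progenitor-like cells of Tet2-KO mice (-0.25 ± 0.09, adjusted p = 0.0341). The WT count of called members was 2 without WT mice 1 and 2 with vehicle and 2 without WT mice 3 and 4 with IL1β. The Tet2-KO count was 0 without Tet2-KO mice 3 and 4 with vehicle or without Tet2-KO mice 1 and 2 with IL1β (8 and 21 unadjusted), and 10 without Tet2-KO mice 3 and 4 with IL1β.

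Across the gates the parts of the complex differed in how far their medians moved. The 7 or 8 tested alpha genes had medians of -0.32 to -0.56 in WT and -0.34 to -0.61 in Tet2-KO (log2), and the 7 constitutive beta genes -0.36 to -0.56 and -0.34 to -0.59. The 6 ATPases ranged from 0.01 to -0.24 in WT and from -0.23 to -0.60 in Tet2-KO, and the 14 non-ATPase genes from 0.07 to -0.35 and from -0.12 to -0.42. The medians of the core genes were below 0 in every gate and genotype, while the WT medians of the ATPases were -0.09, 0.01 and -0.08 in the HSC-like, monocyte-like and CFU-E-like gates and those of the non-ATPase genes -0.12, 0.07 and -0.04. In Tet2-KO mice the ATPase medians were -0.60 in the HSC-like gate and -0.43 in the monocyte-like gate, lower than those of the alpha genes (-0.39 and -0.34) and of the constitutive beta genes (-0.47 and -0.34). The difference between parts was not tested. The longest annotated transcript is under 1500 bases for Psma1, Psma4, Psma5, Psma6, Psmb2, Psmb4, Psmb5 and Psmb6 of the constitutive core. Among the Psmc and Psmd genes it is so for Psmc5, Psmd6 and Psmd10. Genes with short transcripts were lower with IL1β as a class, as given below. The part of transcript length in the difference between parts was not tested. Among single members, Psmb8 was called lower in 9 of 10 tests, Psmb2 and Psmb3 in 8, and Psma2, Psma3 and Psma4 in 7.

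Sums over the genes were lower with IL1β as well. In granulocyte progenitor-like cells the 39 constitutive genes were at 6640 ± 423 CPM in WT with vehicle and 5871 ± 484 CPM with IL1β, with ranges that overlap, and at 6824 ± 348 CPM and 5399 ± 469 CPM in Tet2-KO (SD, n = 4 each). The 5 immunoproteasome genes were at 1290 ± 53.5 CPM and 963 ± 64.9 CPM in WT and at 1320 ± 103 CPM and 944 ± 69.9 CPM in Tet2-KO, without overlap. In CFU-E-like cells the immunoproteasome sum was 545 ± 87.5 CPM and 516 ± 31.9 CPM in WT and 585 ± 40.0 CPM and 575 ± 119 CPM in Tet2-KO, which overlap. Sums of single-cell UMIs are shares of the message of a gate, so less of a member and more of other messages cannot be told apart.

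**Figure D4:**
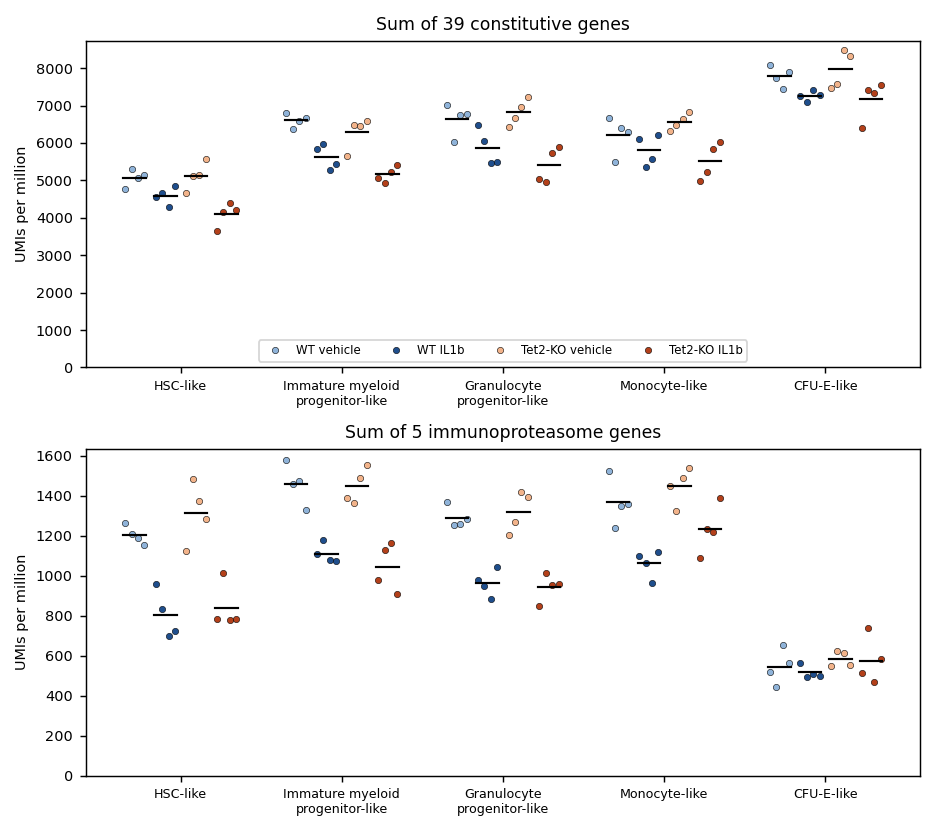
Summed CPM of the 39 constitutive genes (top) and the 5 immunoproteasome genes (bottom) in each mouse (points, 4 a group) with the mean of the group (line), in 5 marker gates. The immunoproteasome sum of the granulocyte progenitor-like gate is lower with IL1β in every mouse, whereas in the CFU-E-like gate the groups overlap.

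The share of the immunoproteasome among the cutting genes had lower means with IL1β in 4 of the 5 gates, in most of them with ranges that overlap. In the granulocyte progenitor-like gate it was 47.8% ± 1.61 in WT with vehicle, 43.0% ± 4.58 with IL1β, 48.3% ± 1.72 in Tet2-KO with vehicle and 44.2% ± 3.03 with IL1β (SD, n = 4 each), and the highest mouse with IL1β, at 49.4% in WT and 48.6% in Tet2-KO, lay within the range of the mice with vehicle or above it. In the HSC-like gate it was 53.9% ± 2.45 and 45.6% ± 8.21 in WT, where the ranges of 51.4 to 57.1% and 33.3 to 50.0% do not overlap, and 57.1% ± 3.37 and 52.5% ± 3.26 in Tet2-KO, where they do. The 4 WT mice with IL1β had 623 UMIs of the cutting genes in the HSC-like gate, so their shares rest on few molecules. The share went from 53.5 to 48.4% in WT and from 54.4 to 51.9% in Tet2-KO in the monocyte-like gate, and from 52.5 to 51.2% and from 52.4 to 50.2% in the immature myeloid progenitor-like gate, all with ranges that overlap. In the CFU-E-like gate the 4 means lay between 19.1 and 20.7%. The share is a score over members and was not tested.

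Because 2 mice shared each library, all 5 gates were also fitted with libraries as replicates, 2 against 2. These sums hold every cell of a library except hashtag doublets, so cells without a clear hashtag are included. In WT the members called lower were then 0 in the HSC-like gate (0.688% of all genes), 13 in the immature myeloid progenitor-like gate (4.35%), 10 in the granulocyte progenitor-like gate (6.16%), 0 in the monocyte-like gate (0.0606%) and 8 in the CFU-E-like gate (5.21%). In Tet2-KO they were 5 (1.88%), 6 (2.42%), 22 (10.7%), 0 (0.109%) and 0 (0.0788%) in the same order. At the counts of 0, edgeR had 15 (HSC-like) and 16 (monocyte-like) members at an unadjusted p under 0.05 in WT and 13 (monocyte-like) and 19 (CFU-E-like) in Tet2-KO, and DESeq2 was not run on libraries. The median change of the members was -0.21 to -0.51 in WT and -0.21 to -0.47 in Tet2-KO, so fewer genes passed at medians close to those of the fit over mice. With mice as replicates, the granulocyte progenitor-like count in either direction was 11 without WT mice 3 and 4 with IL1β and 18 without WT mice 3 and 4 with vehicle, and 24 to 37 in Tet2-KO without any single library.

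Properties of the libraries moved with the treatment beside these genes. In all 5 gates and both genotypes, every mouse with IL1β had a larger mitochondrial share of UMIs than every mouse with vehicle. In the granulocyte progenitor-like gate this share was 3.48 to 4.63% in WT with vehicle and 5.04 to 5.70% with IL1β, and 3.30 to 4.23% and 4.74 to 5.90% in Tet2-KO. The share of ribosomal protein genes was 30.3 to 31.7% and 26.1 to 28.3% in WT and 29.7 to 31.4% and 28.3 to 29.4% in Tet2-KO. It was also lower with IL1β, without overlap in either genotype, in the HSC-like gate (28.4 to 30.3% and 20.2 to 25.2% in WT, 26.4 to 29.8% and 23.9 to 25.6% in Tet2-KO), the immature myeloid progenitor-like gate (30.1 to 31.5% and 24.2 to 27.0%, 28.0 to 31.5% and 24.5 to 27.4%) and the CFU-E-like gate (29.5 to 30.9% and 24.3 to 27.4%, 29.5 to 31.0% and 25.9 to 27.6%). In the monocyte-like gate the ranges overlapped. In WT granulocyte progenitor-like cells the granule genes took 2.28 to 2.67% with vehicle and 1.99 to 2.13% with IL1β, and 17 cell cycle genes 0.229 to 0.260% and 0.267 to 0.305%, both without overlap, while in Tet2-KO mice both overlapped. Genes with short transcripts were lower with IL1β as a class. Among genes of at least 50 CPM in the granulocyte progenitor-like gate, the 546 whose longest annotated transcript is under 1500 bases had a median log2 change of -0.40 in WT and -0.35 in Tet2-KO, and the 2156 longer ones -0.02 and -0.05. The 12 shorter members had medians of -0.45 and -0.54 and the 26 longer ones -0.39 and -0.44. Of the longer members 16 (61.5%) were called lower in WT and 23 (88.5%) in Tet2-KO, beside 27.7% and 33.2% of all longer genes, and of the shorter members 10 (83.3%) and 11 (91.7%), beside 65.2% and 63.6%. In CFU-E-like cells the 12 shorter members had a median of -0.36 in WT and -0.25 in Tet2-KO, near the -0.34 and -0.29 of all shorter genes, and the 28 longer ones -0.16 and -0.14 beside 0.03 and 0.02. The shorter members there were called lower in 58.3% and 41.7% of cases, near the 52.6% and 44.2% of all shorter genes, and the longer ones in 35.7% and 42.9%, beside 14.3% and 12.2%. In the HSC-like gate 0.0% and 33.3% of the shorter members were called lower in WT and Tet2-KO, beside 12.7% and 21.5% of all shorter genes. It was 0.0% and 16.7% beside 6.13% and 7.03% in the monocyte-like gate. In the immature myeloid progenitor-like gate it was 75.0% and 58.3% beside 36.8% and 26.8%. The part of RNA quality, of the ribosomal protein share, of the granule and cell cycle genes and of transcript length in the lower levels was not tested.

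**Figure D5:**
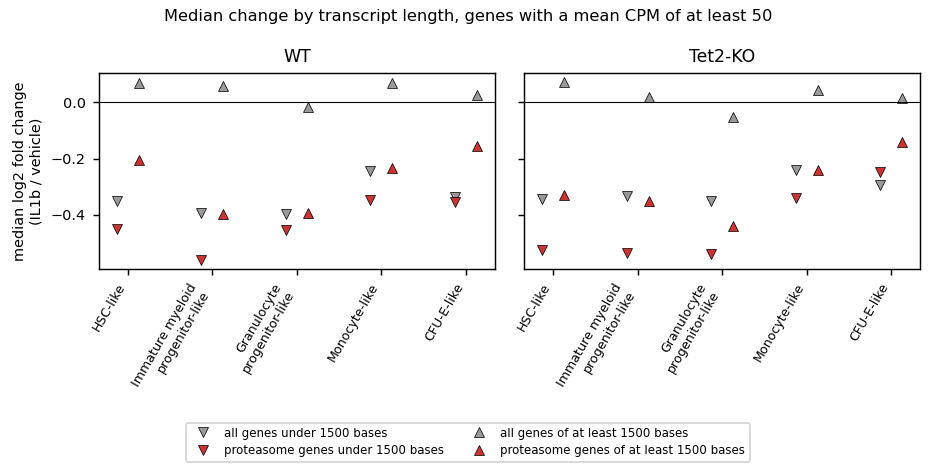
Median log2 fold change of IL1β against vehicle for genes with a mean of at least 50 CPM, split at 1500 bases of the longest annotated transcript, for all genes (grey) and the proteasome genes (red) in 5 marker gates of WT (left) and Tet2-KO mice (right). Shorter genes lie below 0 in all gates, and the longer proteasome genes lie below the longer genes in general, for example -0.39 against -0.02 in granulocyte progenitor-like cells of WT mice.

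The genotypes were compared under each treatment to ask whether loss of Tet2 moved these genes. With vehicle, 0 of 210 tests of members passed in edgeR's test, 3 had an unadjusted p under 0.05 and DESeq2 called 0, where 0.0679% of all tests were called. With IL1β, 0 of 210 passed, 19 had an unadjusted p under 0.05 and DESeq2 called 0, where 0.101% of all tests were called. The lowest adjusted p there was 0.27, for Psmd13 in granulocyte progenitor-like cells (-0.28 ± 0.09, SE). The immunoproteasome and cutting genes lay between -0.15 ± 0.15 (Psme2, immature myeloid progenitor-like) and 0.26 ± 0.18 (Psme1, HSC-like) with vehicle, and between -0.38 ± 0.25 (Psme2, HSC-like) and 0.43 ± 0.16 (Psme2, monocyte-like) with IL1β, over 40 tests each.

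The interaction of genotype and IL1β, which asks whether the change with IL1β differed between Tet2-KO and WT, passed in 0 of 210 tests of members and in 0.0% of all tests, with 9 members at an unadjusted p under 0.05 and 0 called by DESeq2. For Psmb8 it was -0.14 ± 0.20 in the granulocyte progenitor-like gate, -0.33 ± 0.20 in the immature myeloid progenitor-like gate and 0.12 ± 0.27 in the HSC-like gate (log2, SE). Psmd13 in granulocyte progenitor-like cells had -0.39 ± 0.12 (adjusted p = 0.96). Differences between genotypes of the size of these errors were not detectable with 4 mice a group, and the larger count of called members in Tet2-KO granulocyte progenitor-like cells does not show that the change differed.

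Genes that work with the proteasome were examined by function. The 5 assembly factors of the core, Pomp and Psmg1 to Psmg4, were lower in granulocyte progenitor-like cells of both genotypes. Of all 8 assembly factors tested, which also hold Psmd5, Psmd9 and Psmd10, chaperones of the cap counted among the members, 5 were lower and 1 higher in WT and 6 were lower in Tet2-KO, with medians of -0.44 and -0.47, beside 16.5% and 21.1% of all genes called lower. Pomp, which guides the closing of the core, changed by -0.44 ± 0.09 and -0.42 ± 0.09 (SE), and the chaperones of the alpha ring Psmg1, Psmg2, Psmg3 and Psmg4 by -0.44 to -0.70 in WT and by -0.52 to -0.65 in Tet2-KO. Psmg4 was also lower in the HSC-like gate of both genotypes (-1.01 ± 0.27 and -0.73 ± 0.22).

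The transcription factors that raise proteasome synthesis under stress were not called. In granulocyte progenitor-like cells Nfe2l1 was at -0.25 ± 0.10 in WT and -0.13 ± 0.09 in Tet2-KO, and Nfe2l2 at 0.11 ± 0.08 and 0.09 ± 0.08 (log2, SE). Ngly1, which processes Nfe2l1, rose there (0.35 ± 0.11 and 0.46 ± 0.10). Of 12 regulators and associated proteins tested in that gate 3 rose and 2 fell in WT and 3 rose and 3 fell in Tet2-KO, near the shares of all genes called there (14.2% higher and 16.5% lower in WT, 20.6% and 21.1% in Tet2-KO). Sem1, a small subunit of the cap that the tables list as Shfm1, was among those that rose (0.22 ± 0.08 and 0.28 ± 0.08), and Adrm1, a ubiquitin receptor of the cap, was among those that fell (-0.45 ± 0.12 and -0.47 ± 0.11).

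Ubb, a polyubiquitin gene, was lower with IL1β in all 10 tests, from -0.76 ± 0.18 in HSC-like cells of Tet2-KO mice to -1.40 ± 0.16 in granulocyte progenitor-like cells of WT mice. Of 11 genes of ubiquitin and its shuttles tested, 1 rose and 2 fell in granulocyte progenitor-like cells of either genotype, where 16.5% and 21.1% of all genes fell in WT and Tet2-KO. Uba1, the main ubiquitin-activating enzyme, rose there (0.19 ± 0.07 and 0.22 ± 0.07) and in CFU-E-like cells (0.32 ± 0.09 and 0.34 ± 0.09).

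The class I antigen presentation genes share inducers with the immunoproteasome. In granulocyte progenitor-like cells 5 of 16 were higher and 3 lower in WT, beside 14.2% and 16.5% of all genes, and 4 were higher and 3 lower in Tet2-KO, beside 20.6% and 21.1%. The medians of the list were 0.10 and 0.13. Tap2, a chain of the peptide transporter encoded beside Psmb8 and Psmb9 on chromosome 17, rose by 0.45 ± 0.10 in both genotypes (SE, adjusted p = 0.00303 and 0.00131), and the peptide loading factors Tapbp (0.40 ± 0.09 and 0.34 ± 0.09) and Tapbpl (0.43 ± 0.13 and 0.34 ± 0.11) rose too. Irf1, the interferon regulatory factor that induces immunoproteasome genes, rose by 0.52 ± 0.13 and 0.67 ± 0.12, whereas Irf8, which drives monocyte fate, fell, with changes of -0.54 ± 0.18 and -1.05 ± 0.18. The class I heavy chain gene H2-D1, whose reads may be split with near copies, fell, with changes of -0.53 ± 0.12 and -0.45 ± 0.12. Tap1, B2m and Nlrc5 were called in no gate of either genotype.

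Psmc3ip, kept apart from the members, was lower in granulocyte progenitor-like cells by -0.82 ± 0.13 and -0.61 ± 0.12 in WT and Tet2-KO (SE, adjusted p = 0.000244 and 0.000594).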

How the data were processed

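Single-cell 3′ RNA-seq of lineage-depleted bone marrow was analysed from 8 libraries of 2 mice each. The authors deposited UMI count matrices made with Cell Ranger 3.1.0 (mm10, per the labels), with Seurat 3.2.3 named in the submitters' notes. The hashtag counts are rows of the same matrices, and a deposited list gives the mouse of each hashtag. The deposited counts were used as raw UMI counts. Cells with under 750 genes or over 10% mitochondrial UMIs were removed after the study's limits, and cells were assigned to mice with Seurat 5.3.0 (HTODemux). Of 94917 cells, 3938 hashtag doublets (4.15%) and 33083 without a clear hashtag (34.9%) were left out; doublets of 1 mouse stay in. Cells entered a gate by the presence of its markers, and thresholds were set on marker counts, so a gate is not the study's cluster. Counts were summed per mouse and gate (at least 10 cells) and tested with edgeR 4.0.16 in R 4.3.3 (filterByExpr, TMM, quasi-likelihood test, 16 mice in 1 fit per gate, Benjamini-Hochberg over all genes of the gate). Standard errors are the log2 change divided by the root of F. Depth per mouse was 4388604 to 44152768 UMIs, and shares without replicates are not given. Lengths and positions came from GENCODE vM21 (all 44 members matched) and promoters from RefSeq (GRCm38.p6, 37 matched). Named genes were Psmb5 to Psmb10, Psme1, Psme2, up to 10 called members per gate with the smallest adjusted p, members near 0, and the highest and lowest member of each family. Members, parts, pathway lists and gates were chosen with earlier results of these data known. Psme4, Psmd5, Psmd1, Psmb3, Psmb4, Psmd2 and Psmd13 were also named after their values were seen, as were single genes of the pathway lists. Paaf1 of the assembly list was not analysed here. Some genes of the pathway lists are counted but not reported by name here. Alternatives were DESeq2 1.42.0, its size factors, no filter, a mouse-number block, another hashtag rule, stricter gates, libraries as replicates and leaving out each mouse or, added after seeing the data, each library. Scripts were tested on simulated counts of the HSC-like and granulocyte progenitor-like gates. The simulation drew mice as independent, without an effect of the shared library, so it cannot test false calls from shared libraries.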

Additional observations from a re-analysis of the deposited data

Results flagged for a closer look

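Of 240 groups of 4 mice examined (sums, share and the 8 cutting and immunoproteasome genes, in 5 gates), 13 held a mouse far from the others by Dixon's ratio at its 95% critical value, where chance flags about 1 in 20 groups, or 12. In the HSC-like gate, WT mouse 3 with IL1β had a sum over all members of 4973 CPM where the others had 5497 to 5575 CPM, and Tet2-KO mouse 2 with IL1β had an immunoproteasome sum of 1013 CPM where the others had 776 to 784 CPM. WT mouse 4 with IL1β had an immunoproteasome share of 33.3% in that gate, with the others at 49.2 to 50.0%. Also in the HSC-like gate, Psmb7 was at 142 CPM in Tet2-KO mouse 4 with IL1β (others 82.3 to 90.7 CPM) and Psme1 at 657 CPM in Tet2-KO mouse 2 with vehicle (others 481 to 496 CPM).

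In the immature myeloid progenitor-like gate, Tet2-KO mouse 1 with vehicle had a constitutive sum of 5644 CPM (others 6444 to 6596 CPM), and Psme2 was at 228 CPM in WT mouse 2 with IL1β (others 176 to 180 CPM). In the granulocyte progenitor-like gate, Psmb9 was at 136 CPM in Tet2-KO mouse 1 with IL1β (others 155 to 157 CPM) and at 119 CPM in WT mouse 3 with IL1β (others 135 to 137 CPM), and Psme2 was at 220 CPM in WT mouse 2 with vehicle (others 234 to 237 CPM). In the CFU-E-like gate, Psmb10 was at 69.7 CPM in Tet2-KO mouse 1 with vehicle (others 76.6 to 77.5 CPM), Psme1 at 244 CPM in Tet2-KO mouse 3 with vehicle (others 228 to 230 CPM) and Psmb5 at 384 CPM in WT mouse 1 with vehicle (others 335 to 342 CPM). These mice were kept in all results of the report.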

How the results depend on the processing

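The counts of called members, in either direction, depended on which libraries entered and on whether mice or libraries were the replicates. For WT with IL1β against vehicle they were 1 in the HSC-like gate (5 with the hashtag ratio rule, 0 with stricter gates and 0 with libraries as replicates), 21 in the immature myeloid progenitor-like gate (13 with libraries), 28 in the granulocyte progenitor-like gate (10 with libraries), 2 in the monocyte-like gate (0 with libraries, 1 with stricter gates) and 19 in the CFU-E-like gate (9 with libraries). For Tet2-KO they were 9 in the HSC-like gate (5 with DESeq2, 16 with the ratio rule, 5 with libraries, 1 with stricter gates), 15 in the immature myeloid progenitor-like gate (6 with libraries), 36 in the granulocyte progenitor-like gate (23 with libraries), 5 in the monocyte-like gate (3 with no filter, 1 with the ratio rule, 0 with libraries) and 19 in the CFU-E-like gate (0 with libraries). Libraries as replicates leave fewer samples and also add the cells without a clear hashtag, while hashtag doublets stay out. The cause of these moves was not tested. Calls over all genes are given above for libraries as replicates, and not for the other settings or the leave-outs below. Those counts do not tell a move particular to the members from one over all genes.

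Without single mice the WT counts ran from 0 to 2 in the HSC-like gate, 3 to 22 in the immature myeloid progenitor-like gate, 24 to 31 in the granulocyte progenitor-like gate, 0 to 3 in the monocyte-like gate and 12 to 19 in the CFU-E-like gate, and the Tet2-KO counts from 4 to 12, 5 to 16, 30 to 37, 0 to 6 and 6 to 21 in the same order. Without single libraries the WT counts ran from 0 to 2, 2 to 22, 11 to 30, 0 to 2 and 2 to 19, and the Tet2-KO counts from 0 to 10, 1 to 18, 24 to 37, 0 to 5 and 0 to 22. The 3 genotype comparisons stayed at 0 called members in each of 155 recomputed counts.

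Mouse numbers recur across groups, but samples with the same number share only a number. The median correlation of their deviations from the group means was -0.03 to 0.01 by gate, and that of mice with different numbers -0.01 to 0.01. With the mouse number as a block, the count was 0 in the WT monocyte-like gate and 9, 2 and 12 in the immature myeloid progenitor-like, monocyte-like and CFU-E-like gates of Tet2-KO, and within 1.5 times the values above elsewhere.

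Of 4123 recomputed changes of named members in 133 tests, 0 reversed past the limit, 472 lost the call and 25 gained it, and 36 changed sign while passing under neither setting. The immunoproteasome share in the CFU-E-like gate fell to 13.7 and 12.3% (WT vehicle), 18.0 and 14.7% (WT IL1β), 15.2 and 14.2% (Tet2-KO vehicle) and 15.5 and 15.5% (Tet2-KO IL1β) with the ratio rule and with libraries, and was 49.7% in the granulocyte progenitor-like gate of WT with vehicle with the ratio rule. Leaving out a single mouse cannot move the mean share of so small a group by 1 SD. A limit of 1 SD therefore cannot test how far the shares depend on single mice. The mean share of WT with IL1β in the HSC-like gate was 45.6% with all mice and 44.2 to 49.7% without single mice. This was the widest such range.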
